A study of Homo sapiens with 3 samples.

Results

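The 58 genes described here encode proteins that copy DNA and that carry a cell through mitosis. They were taken by name from the 19974 protein-coding genes on chromosomes 1 to 22 and X, and all 58 were found in the RefSeq gene table of GRCh38.p14. The data come from HCC1599, an established line of triple-negative breast cancer cells, which the study's title describes as positive for MARCO-TST. The series held 3 samples of these cells, with no treatment named: chromatin precipitated with an antibody to H3K27ac, chromatin precipitated with an antibody to H3K4me3, and an input without antibody, each as 1 library. H3K4me3 is a histone mark of promoters, and H3K27ac is a mark of active promoters and enhancers. With 1 library per mark no value has a replicate check, so the values below describe these peak lists, no p-value is given, and intervals cover counting error over genes only. No read depth can be read from the lists, so a site without a peak is one where none was called.

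Replication begins when the origin recognition complex, CDC6 and CDT1 load the MCM helicase onto DNA in G1, and it starts once kinases let the GINS complex and the polymerases join. Mitosis is started by cyclin B with CDK1, and the spindle checkpoint holds chromosomes back until every kinetochore is attached. The genes of replication are known targets of the E2F factors and are switched on at the start of S phase. Those of mitosis are switched on later, in G2, through FOXM1 and MYBL2 with the MuvB complex. MuvB binds a promoter element called CHR, which usually lies beside CCAAT boxes bound by NF-Y. In quiescent cells the DREAM complex and RB keep both groups silent.

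The genes were divided by role into 33 mitotic genes, 18 replication genes and 7 regulators, the last being FOXM1, MYBL2, E2F1, E2F2 and E2F3 with the G1/S genes CDK2 and CDC25A. A gene counted as marked if any peak came within 1 kb of one of its annotated ends, and each mark was present at 57 of the 58 genes, against 69.5% of all protein-coding genes for H3K4me3 and 60.7% for H3K27ac. The lists used held 32043 H3K4me3 peaks and 72894 H3K27ac peaks, of which 68 and 88 were at the ends of these genes, and no peak was shared by a pair of them. The label of a breast cancer line was checked against markers, and the epithelial genes EPCAM, CDH1, KRT5, KRT8, KRT18 and KRT19 all carried both marks at their ends. None of 12 lymphocyte, endothelial, fibroblast and macrophage markers carried either mark at its ends, although 5 of them held 1 to 7 peaks elsewhere in the gene. ESR1 had neither mark at its ends but held 5 H3K4me3 and 18 H3K27ac peaks in its span, PGR had H3K4me3 only, and ERBB2 had both.

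Both marks were present at 57 of the 58 genes (98.3%, exact Clopper-Pearson 95% interval 90.8 to 99.96), where the share over all protein-coding genes was 57.6%. All 33 mitotic genes, all 7 regulators and 17 of 18 replication genes were among them. The exception was ORC1, the largest subunit of the origin recognition complex, which had neither mark at its annotated ends on chromosome 1, positions 52372829 and 52409503. The RefSeq promoter table places its start at 52404423, which is 5080 bp inside the annotated span. That start lay in an H3K4me3 peak of 4647 bp (52401892 to 52406538, score 3100) and an H3K27ac peak of 1359 bp (52403098 to 52404456, score 346.5). The promoter table held 66 starts for 49 of the genes, and every one of the 66 had both marks within 1 kb. With those starts added to the annotated ends, the count was 58 of 58, against 60.3% of all protein-coding genes under the same definition.

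Other genes of the same pathways were counted for comparison. Among 35 other mitotic genes 34 carried both marks, SMC2, a condensin subunit, having neither. Of 35 other replication genes 33 carried both, while the initiation factor MCM10 had H3K4me3 only and the single-strand binding subunit RPA3 had H3K27ac only, with a score of 31.8. All 14 genes of the RB and DREAM list, including RB1, RBL1, RBL2, LIN9, LIN54 and E2F4, carried both.

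H3K4me3 at these genes scored at the value where the list piles up. The authors' score was 3100 at each of the 57 marked genes, against 53.3% of all protein-coding genes with 3100 or more, so it does not rank them. H3K27ac scores were spread, from 43.4 to 3106 with a median of 1414, and the median over the 11501 protein-coding genes with both marks was 696. In the other mitotic and other replication lists the median scores were 829 and 498, so the high member median was not shared by them. The background for scores of 3100 or more was 8.37% of all 19974 protein-coding genes, of which only 12132 had H3K27ac at an end. Among the 58 genes, 13 (22.4%) had such scores. They belonged to the mitotic genes CDC25B, PLK1, NDC80, KIF2C, KIF23, PRC1 and MKI67, the replication genes MCM7, CDT1, RRM2 and TYMS, and the regulators E2F2 and E2F3. A score under 100 was found only at GINS1 (80.8) and GINS2 (43.4), which encode subunits of the same helicase cofactor, so 55 of 58 genes kept an H3K27ac score of at least 100, against 52.2% of all protein-coding genes.

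The next comparison concerned widths, taken as the widest peak of each mark at the ends. Over the 57 genes the H3K4me3 peaks had a median width of 4342 bp (interquartile range 3534 to 5384), and 24 of them exceeded 4572 bp, the upper quartile of the 13883 protein-coding genes with the mark. The median over genes with both marks was 3752 bp. H3K27ac peaks had a median of 2568 bp (1652 to 3446), against 2084 bp. In the other mitotic and other replication lists the H3K27ac medians were 2010 and 1577 bp, both below 2084 bp. H3K4me3 was wider than H3K27ac at 52 of the genes, and the exceptions were CDC25B, PLK1, CDT1, POLE and E2F2. The wider H3K27ac peak of POLE was at its far end, with a score of 1095, and at the start of POLE H3K27ac was 2840 bp and H3K4me3 3748 bp. H3K4me3 was the wider mark at 86.9% of all genes with both. H3K27ac covered a median of 60.6% of the H3K4me3 peak, close to the 61.9% of genes with both marks. Across the 57 genes, which share both libraries and are not replicates, the widths of the marks had a Spearman's rho of 0.63 and a Pearson's r of 0.33, and across all genes with both marks these were 0.61 and 0.66.

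**Figure D1:**
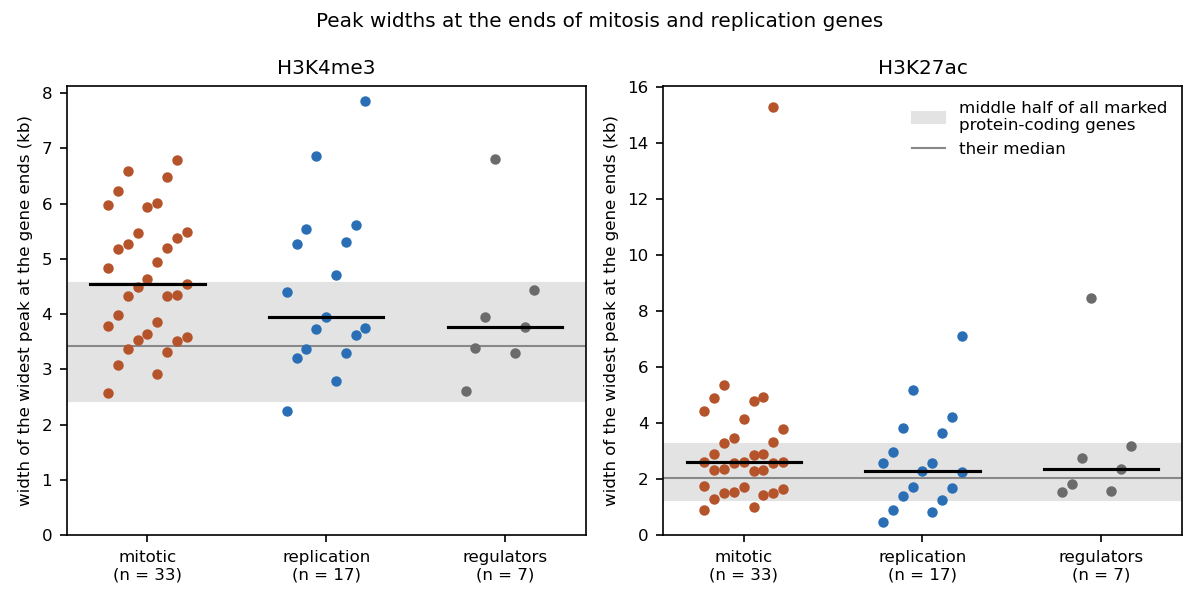
Each point is 1 gene, with the width in kb of its widest peak at the gene ends on the vertical axis, for H3K4me3 (left) and H3K27ac (right), by class; black bars are class medians, and the grey band and line give the quartiles and median of all protein-coding genes with the mark. The mitotic H3K4me3 median of 4553 bp lies at the top of the band and the replication median of 3949 bp inside it, while CDC25B stands alone in H3K27ac at 15288 bp.

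Mitotic genes had the wider H3K4me3. Their median was 4553 bp (order-statistic 95% interval 3859 to 5278) against 3949 bp (3362 to 5306) in the 17 marked replication genes, a difference of -604 bp for replication minus mitotic. The ranges overlapped widely, and of all pairs of a replication and a mitotic gene, the replication gene was the wider in 43.5%. The other mitotic and other replication lists were ordered in the same way, with medians of 4645.5 and 3629.5 bp. H3K27ac medians were 2593 bp in mitotic and 2297 bp in replication genes. That order depended on how peaks were joined: merging peaks less than 500 bp apart gave 2902 and 2954 bp, the opposite order. Among peaks with scores of at least 100 the medians were 2593 and 2555 bp.

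Ends shared with a neighbouring gene went with width. An end of 21 of the 58 genes lay within 1 kb of an end of another protein-coding gene, where the background was 28.6%. The median H3K4me3 width was 4950 bp in those 21 and 3966.5 bp in the 36 marked genes without such a neighbour, and over all marked protein-coding genes it was 3880 and 3165.5 bp. Start-to-start pairs included NDC80 with METTL4 (52 bp apart), MCM2 with TPRA1 (180 bp), CDC25B with CENPB (211 bp), NUF2 with RGS5 (219 bp), POLE with PXMP2 (245 bp) and PCNA with CDS2 (386 bp). A peak there cannot be assigned to one gene of the pair. Among genes without a shared end, the medians were 4334 bp in 23 mitotic and 3675 bp in 10 replication genes.

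Among the genes that start mitosis, the cyclin genes CCNA2, CCNB1 and CCNB2 had H3K4me3 peaks of 5384, 4633 and 3513 bp and H3K27ac peaks of 1652, 2321 and 1739 bp. CDK1, the kinase they activate, had 5181 and 2364 bp. CDC25C, a phosphatase that activates CDK1, carried H3K4me3 over 3534 bp and H3K27ac over 2866 bp. Its relative CDC25B had the widest H3K27ac peak of all 58 genes, 15288 bp at chr20:3796426-3811713 (percentile 99.5 of the protein-coding genes with the mark). That peak covers much of the gene, which spans 3786951 to 3806115, and runs past its far end. The promoter table holds 3 further CDC25B starts inside the gene, at 3795789, 3796310 and 3800048, which lay in or beside it and in an H3K4me3 peak of 6331 bp. At the outermost CDC25B start the H3K27ac peak within 1 kb was 5374 bp wide and ended before the start, on the side of CENPB.

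The mitotic kinase genes all carried H3K4me3 of over 3 kb. AURKA, the spindle pole kinase, had 6484 bp with 2572 bp of H3K27ac, and AURKB, the kinase of the chromosomal passenger complex, had 4334 and 3331 bp. PLK1, which acts at centrosomes and kinetochores, had 4950 and 5347 bp, so that H3K27ac was the wider mark. PLK4, which drives centriole duplication, had 3639 and 2291 bp. The other passenger subunits BIRC5 and INCENP had 3591 and 3859 bp of H3K4me3.

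Spindle checkpoint genes differed more in H3K27ac than in H3K4me3. H3K4me3 ran from 3789 bp at BUB1B to 5932 bp at CDC20, the activator of the anaphase-promoting complex, whose single peak came within 1 kb of both ends of a gene of 4223 bp. H3K27ac ran from 892 bp at TTK, the MPS1 kinase gene, to 3793 bp at CDC20. TTK also had the lowest H3K27ac score of the mitotic genes, 252.7, followed by BUB1B with 292.8 and the kinetochore motor gene CENPE with 347.1. BUB1, a checkpoint kinase gene related to BUB1B, scored 2977.

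At the kinetochore, NDC80 and NUF2, which encode partners in the microtubule-binding complex, had 6793 and 4827 bp of H3K4me3, and H3K27ac scores of 3100 and 681.9. CENPA, the centromeric histone H3 gene, had the narrowest mitotic H3K4me3 peak, 2578 bp. CENPE and CENPF had 2910 and 4330 bp. The kinesin genes KIF11 and KIF2C had 6231 and 4342 bp, and TPX2, the activator of AURKA, had 6013 bp. Cytokinesis genes included ANLN, the anillin gene, with 6595 bp, PRC1, a microtubule bundler, with 5494 bp, the motor genes KIF20A and KIF23 with 5196 and 4553 bp, and ECT2, a RhoA activator, with 3083 bp. MKI67, whose protein coats mitotic chromosomes, and TOP2A, which untangles sister DNA, had 5967 and 3364 bp.

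The replication genes held both the widest and the narrowest H3K4me3 of the set. Of the MCM helicase genes, MCM4 had 7850 bp, the widest, followed by MCM7 with 5618, MCM2 with 4405, MCM3 with 3733, MCM5 with 3617 and MCM6 with 3199 bp. An end of MCM4 lies 805 bp from one of PRKDC, so that its peak is also within reach of that gene. H3K27ac at the same 6 genes ran from 885 bp at MCM3 to 3626 bp at MCM7, and the scores from 170.9 at MCM5 to 3100 at MCM7. The 6 subunits form 1 ring, and their genes had neither one width nor one score.

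Of the licensing genes, CDC6, the loading ATPase, had the narrowest H3K4me3 of the 57, 2252 bp at chr17:40287747-40289998. GMNN, which encodes the CDT1 inhibitor geminin, had 4707 bp. CDT1 itself had an H3K4me3 peak of 5306 bp and an H3K27ac peak of 7113 bp, both lying at its far end beside APRT. At its start the peaks were 4335 and 2404 bp, and the H3K27ac score there was 960.7 in place of 3100. PCNA, the sliding clamp gene, had its 5539 bp peak at chr20:5115905-5121443, which covers a start inside the gene at 5119958. Its outer start, 386 bp from CDS2, had 3873 bp of H3K4me3. H3K27ac within 1 kb of the inner start scored 1264 and at the outer one 139.6.

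GINS1 and GINS2 had the lowest H3K27ac scores, with H3K27ac peaks of 821 and 482 bp under H3K4me3 of 2785 and 3362 bp. At GINS2 acetylation covered 14.3% of the H3K4me3 peak, the lowest share of the set. The polymerase genes POLE and POLA2 had 3748 and 3949 bp of H3K4me3 with H3K27ac scores of 2315 and 1414. In nucleotide supply, RRM2 and TYMS, the small subunit of ribonucleotide reductase and thymidylate synthase, had 6858 and 5277 bp of H3K4me3 with H3K27ac scores of 3100. RRM1, the large reductase subunit, had 3301 bp and a score of 1105.

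Among the regulators, E2F2, an activator of the E2F family, was marked by 6810 bp of H3K4me3, with H3K27ac of 8456 bp reaching beyond it. E2F3 had 4441 and 3185 bp, and E2F1 3764 and 1831 bp. The H3K27ac score of E2F1 was 386.4, and the peak with that score lay at the far end, which is 129 bp from the start of NECAB3. At the E2F1 start the score was 247.1. FOXM1, the factor of the G2 programme, had 3945 and 2350 bp with a score of 1074, and MYBL2, its partner in the MuvB complex, 2614 and 1518 bp with a score of 570.4. CDK2 and CDC25A had 3291 and 3384 bp of H3K4me3 and scores of 383.9 and 942.0.

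The peaks over the starts extended mainly into the genes. The strand was known for 49 genes from the promoter table, and 48 had each mark within 1 kb of the annotated start, against 69.6% of protein-coding genes with a known strand for H3K4me3 and 59.3% for H3K27ac. In the same 48 genes an H3K4me3 peak lay over the start itself. The peak reached further downstream than upstream in 45 of these 48 (93.8%), where the background was 77.6%. In the other lists this held in 22 of 30 mitotic genes (73.3%) and 25 of 30 replication genes (83.3%). The median reach in the 48 members was 1265 bp upstream and 2817 bp downstream, against 1205 and 2113 bp over all protein-coding genes with such a peak. The H3K27ac peak over the start reached further downstream in 33 of 44 genes (75%), where the background was 70.6%. The longest H3K4me3 reach into a gene was 5226 bp at ANLN, followed by 5215 bp at E2F2 and 4303 bp at E2F3. The 3 genes with a longer upstream reach were KIF20A, CDC25C and PCNA, whose starts lie close to those of BRD8, FAM53C and CDS2.

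The classes differed in the part of the H3K4me3 peak that lies inside the gene. Median downstream reach was 3070.5 bp in 28 mitotic genes and 2371 bp in 15 replication genes, while upstream reach was 1307.5 and 1376 bp. In the other mitotic and other replication lists, downstream reach was 3061.5 and 2101 bp. Upstream reach differed in those lists too, at 1530.5 and 1198.5 bp, so the difference there was not confined to the gene. Without members that share an end, downstream reach was 3047 bp in 19 mitotic and 2532 bp in 9 replication genes. For H3K27ac, median downstream reach was nearly the same in both classes, 1456 bp in 26 mitotic and 1419 bp in 14 replication genes. The measure was chosen after the values were seen, and no test was made.

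**Figure D2:**
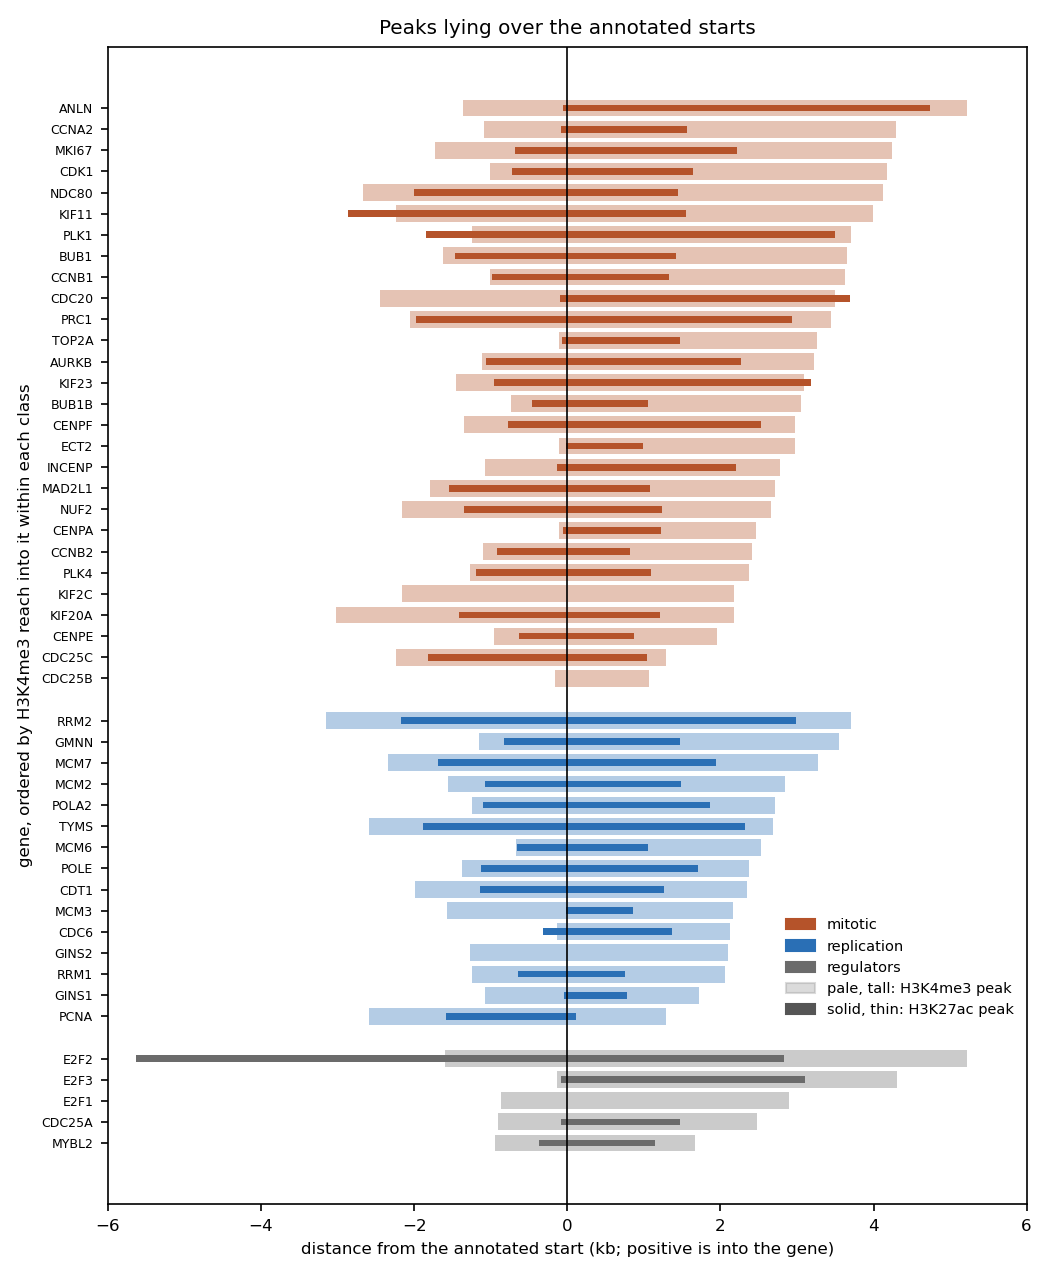
Bars show the peak lying over the annotated start of each gene, against distance from the start in kb, with the direction of transcription to the right; pale bars are H3K4me3 and thin solid bars H3K27ac, coloured by class. H3K4me3 reaches further right than left in 45 of 48 genes, KIF20A, CDC25C and PCNA being the exceptions, and 4 genes have no H3K27ac peak over the start itself.

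Several peaks began almost at the start site. The H3K4me3 peak reached less than 200 bp upstream in 6 of 48 genes (12.5%), TOP2A, CENPA, ECT2, CDC6, E2F3 and CDC25B, where the background was 6.57%. In the other lists it did so in 1 of 30 mitotic genes (3.33%) and 0 of 30 replication genes. The H3K27ac peak of the members reached less than 200 bp upstream in 11 of 44 genes (25%), against 21.3%. At TOP2A, CENPA, ECT2, E2F3 and CDC25B, 2 H3K4me3 peaks lay within 1 kb of the start. There the mark continued upstream after a gap between peaks, while CDC6 had 1 peak. Acetylation was also broken up: the widest H3K4me3 peak held 2 or more H3K27ac peaks in 24 of 57 genes (42.1%), where the background was 24.3%. CCNA2 and RRM2 had 3 each. The background includes 2487 of 13883 genes whose H3K4me3 peak held no H3K27ac peak, which was true of none of the 57. The mean number held was 1.46 in the 57 and 1.33 over all genes with both marks. A wider H3K4me3 peak has room for more peaks, and the part of width in these counts was not tested.

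The promoter sequences, from RefSeq in GRCh38.p14, are shown for the genes with the 2 widest and the narrowest H3K4me3 peaks among the mitotic and among the replication genes that the table holds, because the motifs counted below lie in them. Each line gives the 250 bases before the start, 5′ to 3′ along the gene. Capitals mark matches, on either strand, to the CHR form TTTGAA or the related form TTTAAA, to the CCAAT box, or to an E2F site. The E2F site was searched as TTGGCGC, as the form TTCCCGC, as the form TTGCCGC and as the form TTCGCGC. Matches of different motifs may overlap. The stretches on the plus strand are NDC80 at chr18:2571307-2571556, ANLN at chr7:36389612-36389861, CENPA at chr2:26785806-26786055, RRM2 at chr2:10122318-10122567 and CDC6 at chr17:40287629-40287878. MCM7 is on the minus strand at chr7:100101398-100101647. The mitotic genes come first.
NDC80: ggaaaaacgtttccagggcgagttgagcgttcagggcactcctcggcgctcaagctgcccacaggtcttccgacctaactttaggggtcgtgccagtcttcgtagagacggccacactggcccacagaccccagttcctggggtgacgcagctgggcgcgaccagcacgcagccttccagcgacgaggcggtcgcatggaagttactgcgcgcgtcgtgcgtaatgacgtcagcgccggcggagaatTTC
ANLN: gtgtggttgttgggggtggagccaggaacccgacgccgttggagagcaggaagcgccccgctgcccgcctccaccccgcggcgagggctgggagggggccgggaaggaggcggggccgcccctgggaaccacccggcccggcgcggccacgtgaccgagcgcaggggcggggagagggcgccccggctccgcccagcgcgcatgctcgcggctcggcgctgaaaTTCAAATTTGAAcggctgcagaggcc
CENPA: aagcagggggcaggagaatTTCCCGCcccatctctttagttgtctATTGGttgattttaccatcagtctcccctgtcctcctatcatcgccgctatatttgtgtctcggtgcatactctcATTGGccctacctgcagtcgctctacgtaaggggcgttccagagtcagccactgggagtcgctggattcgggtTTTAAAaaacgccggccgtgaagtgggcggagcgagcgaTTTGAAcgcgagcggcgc
RRM2: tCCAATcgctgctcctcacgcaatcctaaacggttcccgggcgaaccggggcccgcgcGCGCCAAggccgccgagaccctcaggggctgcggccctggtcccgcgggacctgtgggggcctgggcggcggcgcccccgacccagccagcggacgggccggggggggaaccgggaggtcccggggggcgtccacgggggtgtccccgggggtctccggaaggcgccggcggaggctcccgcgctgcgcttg
MCM7: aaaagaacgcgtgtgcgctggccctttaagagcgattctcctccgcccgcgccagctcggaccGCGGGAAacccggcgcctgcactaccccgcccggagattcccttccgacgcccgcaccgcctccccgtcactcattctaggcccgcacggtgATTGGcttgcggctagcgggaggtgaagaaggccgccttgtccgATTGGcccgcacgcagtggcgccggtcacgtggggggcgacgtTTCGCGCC
CDC6: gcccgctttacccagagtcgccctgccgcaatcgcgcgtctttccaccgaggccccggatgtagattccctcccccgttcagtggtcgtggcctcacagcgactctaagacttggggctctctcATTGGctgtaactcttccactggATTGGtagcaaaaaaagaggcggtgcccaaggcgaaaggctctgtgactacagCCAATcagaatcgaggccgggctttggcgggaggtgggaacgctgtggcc

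In the ANLN promoter CHR occurs on both strands side by side, beginning 26 and 20 bases before the start. CENPA has CHR matches beginning 57 and 18 bases before the start, a pair of CCAAT boxes on the opposite strand, and an E2F match 231 bases out. The CHR match of NDC80 runs across the start, so that only its beginning is in the printed stretch, which holds no CCAAT box. MCM7 has E2F matches at 187, 8 and 5 bases before the start and RRM2 has 1 at 192. The CDC6 promoter shows 3 CCAAT boxes, and its E2F match begins 8 bases past the start, outside the printed stretch.

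Motifs were then counted in the whole promoter windows of the table, from 250 bases before to 50 after the start. In each of 28 mitotic and 16 replication genes, only the start nearest the annotated one was used. CHR matches were found in 23 of 28 mitotic promoters (82.1%) and in 1 of 16 replication promoters (6.25%), that of RRM1, where the background over 15813 protein-coding genes was 19.7%. E2F matches showed the opposite order, with 15 of 16 replication promoters (93.8%) and 8 of 28 mitotic ones (28.6%), against 17% of all promoters. GMNN was the replication gene without one. CCAAT boxes were in 11 of 16 replication promoters (68.8%) and 19 of 28 mitotic ones (67.9%), against 36.4%. CHR and CCAAT occurred together in 16 mitotic promoters (57.1%), where the background was 8.03%. The mitotic genes without a CHR match were BUB1, CCNA2, CDC25B, CDC25C and AURKB, and no match says only that these letters are not in this window. CDC25B and CDC25C have further starts inside the gene, whose windows were not searched. Those of CDC25C, at 138331804 and 138331877, lay in an H3K4me3 peak of 4004 bp.

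Positions were then taken for the match nearest the start. Of the 23 mitotic promoters with CHR, 19 had it within 60 bases before to 50 bases after the start, with a median position of -23, against 30.7% of matching promoters over all genes. For E2F in replication genes this held in 12 of 15, also with a median of -23, against 40.8% of matching promoters over all genes. The E2F matches of the mitotic members lay further out, with a median of -98 and 3 of 8 in that window (37.5%). The other mitotic list differed, with a median of -36 and 10 of 15 in the window (66.7%). In the other replication list the median was -5, with 16 of 17 in the window (94.1%). The E2F forms are rich in G and C, and median GC content was 66.8% in the replication promoters, 61.3% in the mitotic ones and 62.7% over all promoters, and its part in the counts was not tested. In the other lists, CHR was in 22 of 31 mitotic promoters (71.0%) and 3 of 31 replication promoters (9.68%), while E2F was in 15 (48.4%) and 17 (54.8%). CCAAT boxes were in 23 (74.2%) and 14 (45.2%), where the members had 67.9% and 68.8%. The separation by CHR was thus seen in both pairs of lists, and the one by E2F was narrower in the other lists. A match describes letters and is no evidence of binding.

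**Figure D3:**
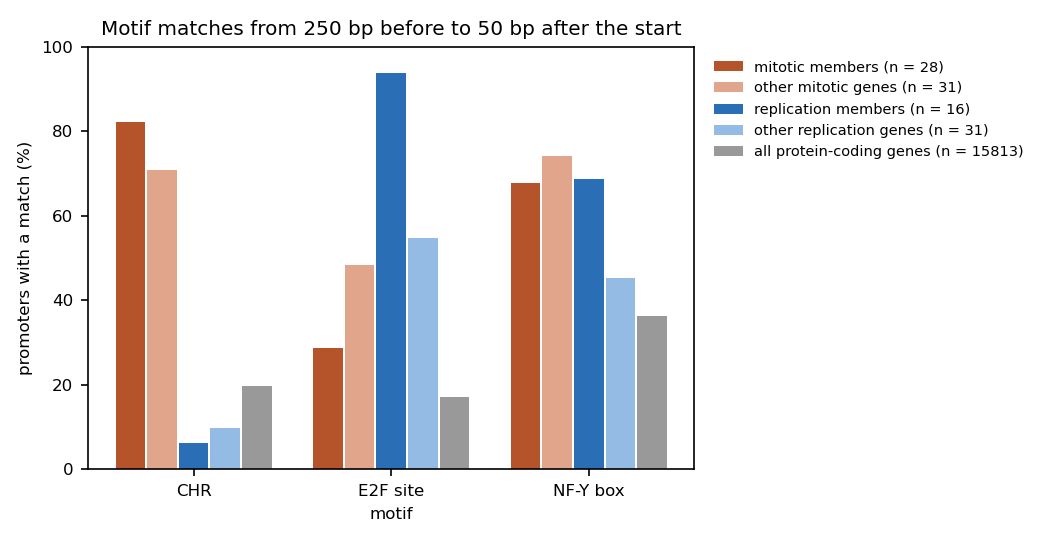
Bars give the percentage of promoters with at least 1 match to CHR, an E2F site or the NF-Y box, the CCAAT box of the text, for the mitotic and replication members, the other genes of each kind and all protein-coding genes. CHR is found in 82.1% of mitotic and 6.25% of replication members and E2F in 28.6% and 93.8%, while the NF-Y box is near 68% in both.

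Distal H3K27ac peaks were those over 2.5 kb away from any annotated gene end, non-coding genes included. They were counted up to 50 kb on both sides of each end of the 58 genes, so a longer gene had more sequence in reach. Starts inside genes were not excluded, and the only distal peak of CDC25B covered its own start at 3795789. The only one of CDK1 lay within the H3K4me3 peak at its start, as did a distal peak of BUB1 and of CCNA2. A distal peak of NDC80 and of RRM2 overlapped the end of such a peak. At least 1 such peak was near 54 of the 58 genes (93.1%), where the background was 78.7%. The mean was 3.72 peaks (SD 3.34 over the 58 genes), against 2.97 over all protein-coding genes and 3.69 over those with both marks, so that the members lay close to the latter. The 215 distinct distal peaks had a median score of 49.8 and 19.5% overlapped H3K4me3, against 51.8 and 18.4% for all 47559 distal peaks. No distal peak was within 50 kb of MCM7, GMNN, KIF20A or TTK.

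Replication genes had more distal peaks than mitotic genes, and a few genes held most of them. The mean was 5.33 (SD 4.65, n = 18 genes) against 2.88 (SD 2.32, n = 33 genes), and the medians were 4.5 and 2. MCM5 had 16, RRM2 14, GINS1 11 and CDT1 10, together 51 of the 96 counted for replication genes. BIRC5 with 10 was the only mitotic gene to reach that number. Below 10 peaks, the remaining replication genes had a mean of 3.21 and the mitotic genes 2.66. In the other replication and other mitotic genes the means were 2.91 and 3.0, the opposite order, and the medians were 3 and 2, the same order. With only peaks outside the gene itself counted, the means were 4.11 in replication and 2.09 in mitotic members. By that count MCM5 had 12, RRM2 6, GINS1 9 and CDT1 10. The mean was 2.03 in each of the other lists.

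Near CDT1, BIRC5, CCNB2 and AURKA, a distal peak with a score of 3100 or more lay inside another gene. Around MCM5 (chr22:35400140-35455031) the highest score was 633.0, at chr22:35467041-35469997, and 4 of the 16 lay inside the gene. RRM2 spans 88443 bp in the table and held 8 of its 14 peaks, with the highest, 1796, lying 11297 bp outside it at chr2:10106943-10111271. The strongest peak counted for CDT1, 3200 at chr16:88765211-88771782, lay in PIEZO1. Scores of 3100 near BIRC5, CCNB2 and AURKA belonged to peaks in AFMID, MYO1E and CASS4. Which gene a distal peak acts on cannot be read from these data.

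**Figure D4:**
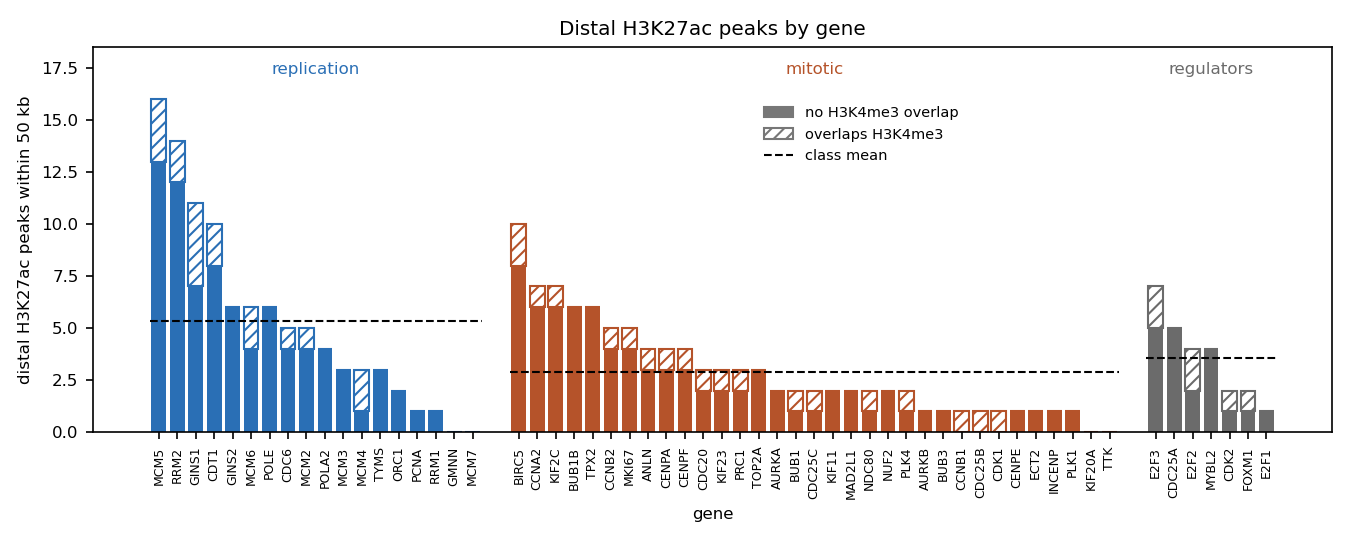
Bar height is the distal H3K27ac peak count of each gene up to 50 kb away, ordered within its class, with hatched parts for peaks that overlap H3K4me3 and a dashed line at the class mean. MCM5, RRM2, GINS1 and CDT1 stand at 10 to 16 on the replication side, and MCM7, GMNN, KIF20A and TTK are at 0.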

How the data were processed

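Per the submitters' processing notes, the authors used Bowtie2, MACS 1.4 and hg38; the Bowtie2 version and the parameters are not given in the sources used here. The authors deposited 1 peak list per mark with a score that has no stated unit, runs from 30 and piles up at 3100, and is used only to describe and filter peaks. Chromatin was cut with micrococcal nuclease and sonication, per the labels' protocols, so peak edges and gaps depend on digestion and calling. The input was not analysed here, and depth and copy number are unknown.

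Peaks on chromosomes 1 to 22 and X were set against RefSeq spans of GRCh38.p14; positions count from 1. Strand and start came from the promoter table, which holds 49 of the 58 genes. The members, roles, other gene lists and motifs were chosen with earlier results of these data known. Every member may be named, with full values for exceptions, extremes per mark, shared ends and scores under 100. Alternatives were other windows, flanks and distal distances, a score of at least 100, merged or summed peaks, starts only, genes without a shared end, and CDK2 and CDC25A as mitotic; starts of the promoter table, medians of distal counts, 1 form of CHR and downstream reach were added after seeing the data. In simulated data 200 of 200 planted peaks were found. Python 3.11.15, numpy 2.4.6, scipy 1.17.1 and matplotlib 3.10.9 were used.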

Additional observations from a re-analysis of the deposited data

How the results depend on the processing

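No paired analysis was possible because each mark has 1 library and the results come from no test. Of 37 alternative values, 30 stayed within 1.5 times the reported one in the same direction. The count of genes with both marks was 36 of 37 without genes that share an end, a smaller set. The H3K27ac width difference, replication minus mitotic, was -296 bp as reported, 52 bp with peaks less than 500 bp apart merged, -38 bp with scores of at least 100, -636 bp without genes that share an end, and -167 bp with the starts of the promoter table added; the cause was not tested. The H3K4me3 difference ran from -684 to -456 bp. The difference in mean distal peaks, 2.45 as reported, was 4.10 within 100 kb and 1.10 for scores of at least 100, where the settings change how many peaks can be counted. Depth, and so the peaks that were missed, cannot be judged from the lists.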
